A study of Mus musculus with 6 samples.

Results

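The 10 genes described here encode NF-kB subunits (Nfkb1, Rela, Relb), adaptors and kinases that act below the TNF receptor or the NOD receptors (Traf2, Tradd, Ripk1, Ripk2), and products of NF-kB target genes that restrain signalling or cell death (Tnfaip3, Birc2, Bcl2l1). They were listed by symbol and not by a rule on their values, but with earlier results of these data known. All 10 were found among the 254 genes of the table. Transcripts were counted in RNA of full-thickness back skin with the nCounter Mouse Inflammation V2 panel, which counts single RNA molecules bound by barcoded probes, without amplification. All 6 samples came from SKH-1 mice, an immunocompetent hairless strain, whose age is not given in the sources used here. Each animal was irradiated once with solar simulated light, with a UVA dose of 90 kJ/m2 and a UVB dose of 6 kJ/m2, and its skin was collected after 24 h. In the UV group (n = 3) the back was painted with 200 µl of acetone, the vehicle. In the UV plus BMS-202 group (n = 3) the acetone was replaced by the same volume of BMS-202 at 8 mM. The sample titles carry WT for the UV group and BMS-202 for the other, without saying what WT refers to. BMS-202 is a small molecule inhibitor that binds the immune checkpoint ligand PD-L1 and blocks its contact with PD-1. Both were applied 3 times, at 24 h and 1 h before the light and right after it. The question is whether PD-L1 blockade on the skin surface alters the expression of these genes after irradiation. Skin without irradiation was not analysed here, so no direction toward or away from resting skin can be given.

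NF-kB factors are dimers of Rel family proteins that are held in the cytoplasm until a receptor signal frees them. When TNF binds TNF receptor 1, the adaptor TRADD and the kinase RIPK1 gather at its death domain, TRAF2 brings in the ubiquitin ligase cIAP1, and the ubiquitin chains built there recruit the kinases that release NF-kB. The freed factors switch on inflammatory and survival genes together with Tnfaip3, whose product A20 edits ubiquitin chains and shuts the signal down. In skin, ultraviolet light activates this pathway in keratinocytes, and its strength bears on inflammation and on whether damaged cells survive.

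The deposited values are probe counts scaled so that the glycolytic gene Gapdh reads 6417 in every sample, with a floor of 20. The recovered counts summed over genes to between 142900 and 160891 in a UV sample and between 41537 and 45040 in a BMS-202 sample. The other 5 housekeeping genes read 2.33-fold to 10.6-fold lower with BMS-202 on this scale, so a direction below is relative to Gapdh unless another scaling is named. All 10 genes lay above the negative control limit (mean + 2 SD of the negative control probes, at most 26.6 with UV and 45.3 with BMS-202) in every sample, and none was at the floor. Each was read as 152 to 1039 counts per UV sample and 55 to 201 counts per BMS-202 sample. The coefficient of variation between replicates was below that of counting alone for 6 genes in each group. The labels give 3 mice per group but tie no sample to a mouse, so SDs and p-values reflect only the scatter of these samples, which is near the counting error and could be technical. Keratinocyte and fibroblast markers are not on the panel, so the labelled tissue was not checked against them.

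Relative to Gapdh, all 10 genes fell with BMS-202 (limma, adjusted p under 0.05), by 1.31-fold for Tnfaip3 to 5.89-fold for Nfkb1, but 9 of them turned to higher with both housekeeping scalings. The groups overlapped for none of the 10. On the panel as a whole 55.0% of 240 tested genes were called lower, and 56.2% had groups that did not overlap in that direction. The median log2 difference (UV plus BMS-202 minus UV, on log2(value + 1)) was -0.96 over the 10 genes and -0.56 over all tested genes. The spread among the genes narrowed: their means ran from 161 to 839 with UV, a 5.21-fold range, and from 69.0 to 205 with BMS-202, a 2.97-fold range. Over all 240 tested genes the difference also ran opposite to the UV level (Spearman's rho -0.88), so the narrowing is not particular to the 10. Their joint share of the gene counts was 2.33 to 2.36% in UV samples and 2.66 to 2.77% in BMS-202 samples. This share was higher in every BMS-202 sample, opposite to the direction relative to Gapdh.

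**Figure D1:**
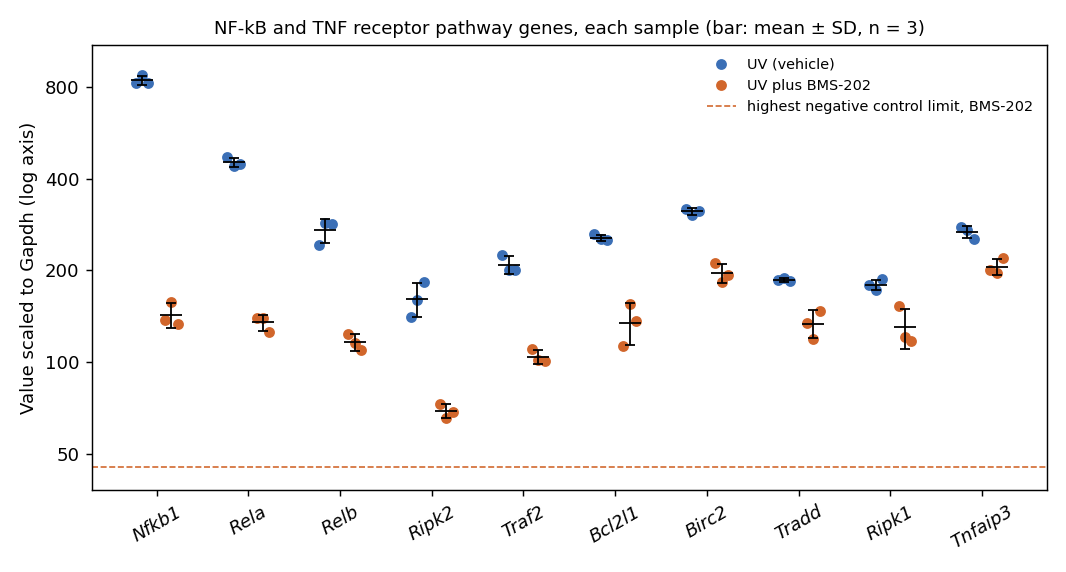
Values scaled to Gapdh (log axis) of the 10 genes in each of 3 UV samples (blue) and 3 UV plus BMS-202 samples (orange), ordered by their difference, with bars for mean ± SD and a dashed line at the highest negative control limit of the BMS-202 samples (45.3). The orange points lie below the blue ones for every gene, widely apart for Nfkb1 (5.89-fold) and closely for Tnfaip3 (1.31-fold), on a scale that 9 of these differences reverse under housekeeping scaling.

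Nfkb1 and Rela fell most of the 10, and Relb fell about as far as Ripk2. Nfkb1, which encodes the p105 precursor of the p50 subunit, read 823, 872 and 823 in the UV samples and 137, 158 and 133 in the BMS-202 samples. The lowest UV sample was 5.22 times the highest BMS-202 sample. Its log2 difference was -2.55 ± 0.072 (SE, n = 3 per group, limma adjusted p = 1.35e-10). Rela encodes p65, the subunit that carries the main transactivation domain. It read 470, 440 and 448 with UV and 139, 140 and 126 with BMS-202, a 3.36-fold difference (log2 -1.74 ± 0.068, limma adjusted p = 1.57e-09). The samples of each group lay close together, far from those of the other group. Relb encodes the partner of p52 in the non-canonical branch of the pathway. It read 243, 286 and 284 with UV and 124, 116 and 109 with BMS-202, 2.33-fold lower (log2 -1.21 ± 0.089, limma adjusted p = 2.47e-07). UV replicate 1 was the lowest of its group but still 1.96 times the highest BMS-202 sample. Rela and Relb were lower under 4 of 6 scalings and higher under both housekeeping scalings. Nfkb1 was lower under 5 of 6 and did not pass with the 5 housekeeping genes without Gapdh (log2 0.15, limma adjusted p = 0.120).

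Relative to Gapdh the fall was not equal within the family. Ratios of genes within a sample do not depend on how the sample was scaled. Each ratio also holds the efficiencies of its probes, so only its change can be read. The ratio of Nfkb1 to Rela was 1.75, 1.98 and 1.84 with UV and 0.983, 1.13 and 1.06 with BMS-202. The ratio of Rela to Relb was 1.94, 1.54 and 1.58 with UV and 1.13, 1.21 and 1.15 with BMS-202. In both ratios every BMS-202 sample lay below every UV sample. The level of Nfkb1 relative to Rela, and of Rela relative to Relb, was thus lower with BMS-202, whichever factor is applied to a whole sample. A ratio does not remove the panel-wide relation of the difference to the UV level, which is described below. Other tested genes within 1.5-fold of the UV mean had median log2 differences in the same order. These were -2.38 for Nfkb1, -1.63 for Rela and -1.39 for Relb, so these changes are not particular to the family. The pairs of genes whose ratios are given were picked after values had been seen and carry no test.

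Among the receptor adaptors, Traf2 fell further than Tradd. Traf2, the adaptor that recruits cIAP proteins to TNF receptors, read 224, 200.5 and 201 with UV and 110.2, 101 and 100.5 with BMS-202. Its groups were well apart, with a log2 difference of -0.995 ± 0.084 (limma adjusted p = 8.23e-07), 2.004-fold lower. Tradd, the death domain adaptor of TNF receptor 1, read 185, 189 and 184 with UV and 134, 119 and 147 with BMS-202. The UV samples were almost equal and the BMS-202 samples more spread, with log2 -0.48 ± 0.090 (limma adjusted p = 4.66e-04). Traf2 was lower under 4 of 6 scalings and higher under both housekeeping scalings. Tradd was lower under 2, higher under 2 and had no call with the panel median or quantiles. The ratio of Tradd to Traf2 was 0.826, 0.941 and 0.917 with UV and 1.22, 1.18 and 1.47 with BMS-202, with no overlap.

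The 2 RIP kinase genes differed in the size of their fall. Ripk1, which encodes the kinase and scaffold of the TNF receptor 1 complex, read 179, 173 and 187 with UV and 153, 121 and 117 with BMS-202. It was 1.38-fold lower (log2 -0.47 ± 0.11, limma adjusted p = 0.00173), and BMS-202 replicate 1 lay nearest to the UV samples. Without that sample the difference was -0.59 on the log2 scale. Ripk2, which encodes the kinase that relays signals from NOD1 and NOD2, read 141, 160 and 182 with UV and 72.7, 65.6 and 68.8 with BMS-202. It was 2.33-fold lower (log2 -1.20 ± 0.11, limma adjusted p = 1.59e-06). Its UV samples were the most spread of the 10 genes, with a coefficient of variation of 12.9% against 7.38% from counting. Ripk2 was lower under 4 of 6 scalings and higher under both housekeeping scalings, and Ripk1 was lower under 2, higher under 2 and without a call under 2. The ratio of Ripk1 to Ripk2 was 1.27, 1.08 and 1.02 with UV and 2.10, 1.84 and 1.70 with BMS-202. The ratio of Ripk1 to Tradd, which meet at the same receptor, was 0.965, 0.916 and 1.01 with UV and 1.14, 1.01 and 0.793 with BMS-202, with overlapping groups.

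Of Tnfaip3, Birc2 and Bcl2l1, all known as NF-kB targets, Tnfaip3 had the smallest fall relative to Gapdh and Bcl2l1 the largest. Tnfaip3 read 277, 272 and 254 with UV and 200 (199.9), 196 and 220 (219.5) with BMS-202. Its groups lay close, the lowest UV sample being 1.16 times the highest BMS-202 sample, with log2 -0.38 ± 0.071 (limma adjusted p = 4.38e-04). Birc2, which encodes cIAP1, read 319, 305 and 312 with UV and 211, 183 and 193 with BMS-202. It was 1.59-fold lower (log2 -0.67 ± 0.070, limma adjusted p = 4.80e-06), and the spread within groups was small. Bcl2l1, which encodes the anti-apoptotic protein BCL-XL, read 262, 253 and 251 with UV and 113, 155 and 137 with BMS-202. It was 1.90-fold lower (log2 -0.93 ± 0.11, limma adjusted p = 1.20e-05), with BMS-202 replicate 1 the lowest sample. With quantile normalization Tnfaip3 and Birc2 turned to higher (log2 1.003 and 0.79) and Bcl2l1 had no call, and under both housekeeping scalings all 3 were higher.

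Promoter windows from RefSeq (GRCm38.p6, 250 bases before to 50 after a start site) were found for 6 of the 10 genes, namely Traf2, Bcl2l1, Birc2, Tnfaip3, Ripk1 and Rela. They were searched on both strands for the consensus kappaB decamer, the sequence pattern bound by NF-kB dimers. A match was found for 2 of the 6, Tnfaip3 and Bcl2l1, against 9.55% of all 27025 genes in the table and 33 of 187 panel genes (17.6%). A gene counts if any of its windows matches, so genes with more windows are favoured. Counted by window, 2 of 11 windows of these genes matched (18.2%), against 8.46% of all 32851 windows. The matching windows are shown because they belong to the genes whose products feed back on the pathway or guard survival, with the matches in capitals. Tnfaip3 has 2 matches in 1 of its windows, starting 125 and 12 bases before the start site, and its other window has none. The first match reads as a match on both strands, so that the strand matches overlap there. Bcl2l1 has 1 match, 242 bases before the start site, in 1 of its 3 windows. A match describes the letters only. The windows, at chr10:19015361-19015660 (minus strand) and chr2:152830668-152830967 (minus strand), read 5′ to 3′ as follows.
Tnfaip3: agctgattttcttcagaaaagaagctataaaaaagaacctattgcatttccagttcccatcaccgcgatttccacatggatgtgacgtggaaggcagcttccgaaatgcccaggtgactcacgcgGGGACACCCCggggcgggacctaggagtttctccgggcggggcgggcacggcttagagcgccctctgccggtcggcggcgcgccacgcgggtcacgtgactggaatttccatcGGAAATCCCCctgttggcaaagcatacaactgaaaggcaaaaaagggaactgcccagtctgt
Bcl2l1: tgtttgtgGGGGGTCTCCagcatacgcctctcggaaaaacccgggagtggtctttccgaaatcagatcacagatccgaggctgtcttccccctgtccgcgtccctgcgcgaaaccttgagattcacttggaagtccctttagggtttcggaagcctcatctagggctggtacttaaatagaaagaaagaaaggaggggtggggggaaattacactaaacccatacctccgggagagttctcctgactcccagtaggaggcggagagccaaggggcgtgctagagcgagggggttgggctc

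Relative to Gapdh the log2 differences of these genes were -0.38 for Tnfaip3 (95% interval -0.54 to -0.22) and -0.93 for Bcl2l1 (-1.17 to -0.69). In the order of the 10 differences only the first steps, from Nfkb1 to Rela (0.81) and from Rela to Relb (0.53), were larger than 2 times the combined SE of the neighbours. From Relb through Ripk2, Traf2, Bcl2l1, Birc2, Tradd and Ripk1 to Tnfaip3, no neighbour differed from the next beyond that. The step from Bcl2l1 to Birc2 (0.26) came nearest, at 1.99 times the combined SE. The ends of this run did differ, with 95% intervals of -1.41 to -1.01 for Relb and -0.54 to -0.22 for Tnfaip3.

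Set against the mean of the other 9 in the same sample, which removes the scaling, Nfkb1 and Rela were lower and Tnfaip3, Tradd, Ripk1 and Birc2 higher in every BMS-202 sample than in any UV sample. The log2 ratio of Nfkb1 to the others was 1.77, 1.85 and 1.75 with UV and 0.037, 0.31 and 0.054 with BMS-202, a change of -1.66. That of Tnfaip3 was 0.025, -0.015 and -0.14 with UV and 0.64, 0.66 and 0.85 with BMS-202, a change of 0.76. Rela changed by -0.75, Ripk1 by 0.66, Tradd by 0.65 and Birc2 by 0.44. For these 6 genes the groups did not overlap (two-sided exact permutation test, p = 0.1 each, the smallest that 3 against 3 samples allow). After Benjamini-Hochberg adjustment over the 10 genes this exact p was 0.167 for each of the 6. For Relb, Traf2, Ripk2 and Bcl2l1 the groups overlapped, with changes of -0.17, 0.076, -0.16 and 0.15 (exact p = 0.3, 0.3, 0.3 and 0.4). How many of all panel genes would lie apart in such a ratio was not computed. Such a ratio also keeps the panel-wide relation of the difference to the UV level, which is described below. Relative to Gapdh, 56.2% of tested genes lay apart as lower and 38.8% as higher, so separation alone is common here. In a limma fit over 237 genes with the mean of all 10 as reference, chosen after the data had been seen, 2 of the 10 were lower and 4 higher, against 38.8% and 53.6% of all genes. Since each gene is set against a mean that includes it, values on both sides of 0 follow by construction, and the large loss of Nfkb1 raises the others. The 2 were Nfkb1 (log2 -1.49, adjusted p = 2.59e-07) and Rela (-0.68, adjusted p = 1.08e-05). The 4 were Tnfaip3 (0.68, adjusted p = 3.10e-05), Ripk1, Tradd and Birc2, the least changed of these being Birc2 (0.39, adjusted p = 3.41e-04).

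**Figure D2:**
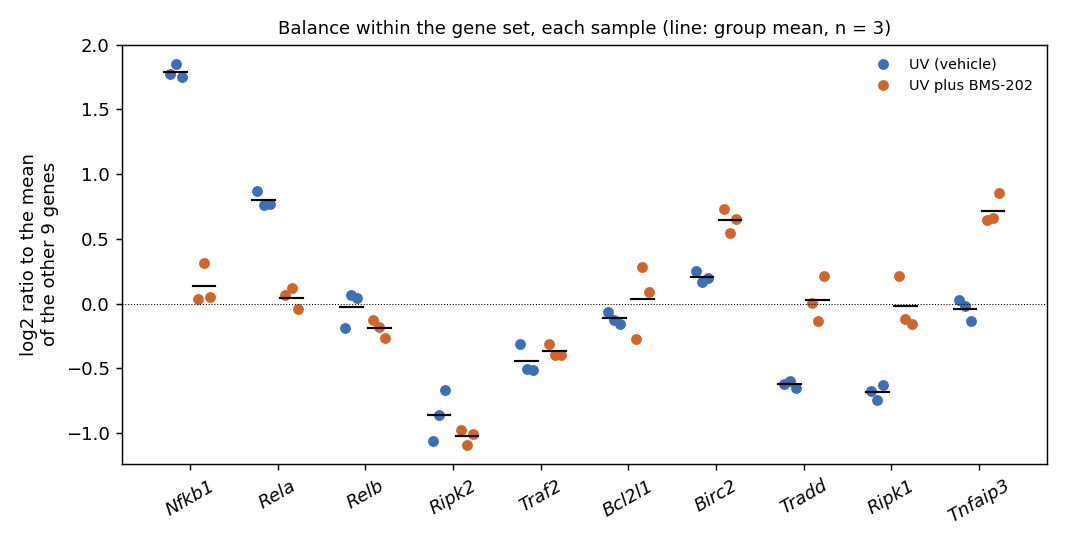
The log2 ratio of each gene to the mean of the other 9 genes in the same sample, for 3 UV (blue) and 3 UV plus BMS-202 samples (orange), with lines at group means. Nfkb1 drops by 1.66 and Rela by 0.75, Tnfaip3 gains 0.76, and the groups overlap for Relb, Ripk2, Traf2 and Bcl2l1.

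These sizes were then read against panel genes of like level in UV skin, since over all 240 tested genes the difference ran opposite to the UV level. Spearman's rho between them was -0.88 over all tested genes and -0.50 over the 10, and the UV values enter both measures and all genes share the same 6 samples. For Nfkb1 all 24 other tested genes within 1.5-fold of its UV mean were called lower, with a median log2 difference of -2.38 against its -2.55, and 5 of the 24 fell more. For Rela 39 of 41 such genes were lower, with a median of -1.63 against -1.74. Nfkb1 and Rela were thus 0.18 and 0.11 below the medians of their neighbours in level, and Nfkb1 lay just below the lower quartile of its own (-2.54). Tnfaip3 stood farthest from its neighbours: its -0.38 compares with a median of -1.36 over 42 genes, of which 36 fell more. Birc2 (-0.67 against -1.45, with 32 of 41 genes falling more) and Tradd (-0.48 against -0.97, with 30 of 38 falling more) also lay above the upper quartile of theirs. Ripk2 lay 0.41 below the median of its neighbours, and Ripk1 and Bcl2l1 each 0.40 above. Of the 10 genes 6 lay within the middle quartiles of their neighbours. A position among neighbours is a description, without a test.

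**Figure D3:**
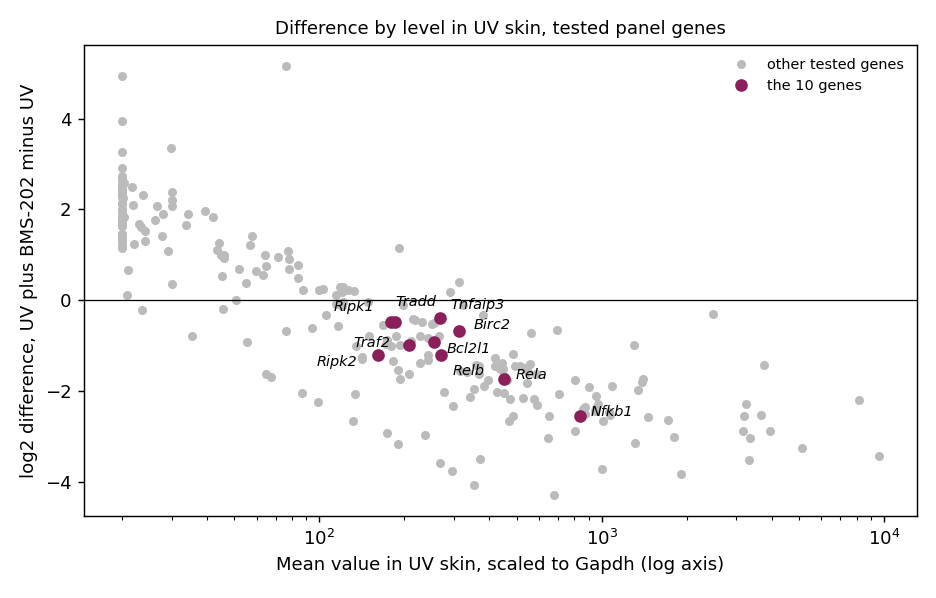
The log2 difference (UV plus BMS-202 minus UV) against the mean value in UV skin scaled to Gapdh (log axis), for 240 tested panel genes (grey) with the 10 genes in purple. Rela lies between the quartiles of genes of like level, Nfkb1 just below the lower quartile (-2.55 against -2.54), and Tnfaip3, Birc2 and Tradd above the upper one, on a scale whose zero line moves with the reference genes. Points stacked at the left edge are genes listed at the floor of 20 in UV skin.

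The direction of the whole set depended on the reference. Relative to Gapdh and to the positive spike-in controls all 10 genes were lower (medians -0.96 and -1.34, with panel medians of -0.56 and -0.94 and 55.0% and 59.4% of tested genes lower, and 34.3% higher with the spike-ins). The geometric mean of the spike-in counts ran from 2060 in UV replicate 1 up to 2469 in UV replicate 2. Every BMS-202 sample lay inside that range. The summed gene counts were at least 142900 in each UV sample but at most 45040 in each BMS-202 sample. The spike-in scaling thus largely restates the lower gene counts and is not a separate measure of expression. Relative to the panel median 7 were lower and 3 had no call (median -0.64, panel -0.27, 50.8% lower and 42.9% higher). With quantile normalization 5 were lower, 2 higher and 3 without a call (median -0.24, panel 0.097, 40.0% lower and 41.2% higher). With all 6 housekeeping genes 9 were higher and Nfkb1 alone was lower (median 1.29, panel 1.42, 78.9% higher and 14.2% lower). With the 5 other than Gapdh 9 were higher and Nfkb1 had no call (median 1.74, panel 1.65, 87.9% higher and 7.36% lower). The median of the 10 lay 0.40 below to 0.093 above that of the panel, a gap that a factor common to all genes of a sample cannot move except through the pseudocount and the floor. None of the 10 was called in the same direction under all 6 scalings.

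**Figure D4:**
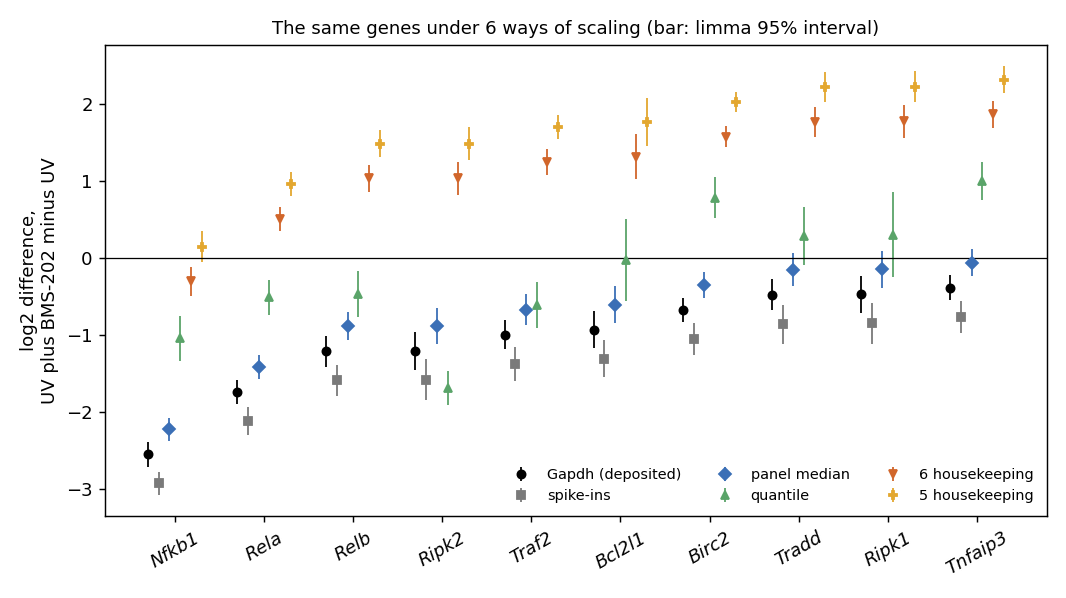
The log2 difference (UV plus BMS-202 minus UV) of the 10 genes under 6 ways of scaling, with limma 95% intervals. Points for both housekeeping scalings lie above 0 except Nfkb1 with 6 genes (-0.30), those for Gapdh and the spike-ins lie below 0, and Nfkb1 stands lowest under every scaling but quantile normalization, where Ripk2 does (-1.69).

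Of 51 further NF-kB and TNF pathway genes listed, 15 were on the panel and all were tested. Relative to Gapdh 8 were lower and 7 higher, with a median log2 difference of -0.9996, against 55.0% lower and 38.3% higher on the panel. The 8 were intracellular kinases, adaptors and sensors with UV means of 135 to 1344, and of 90 other tested genes at these UV levels 84 were lower and 3 higher. The 8 turned to higher or lost the call under at least 1 scaling. Map3k5, which encodes the stress kinase ASK1, read 458, 505 and 446 with UV and 72.7, 66.8 and 81.9 with BMS-202 (log2 -2.66 ± 0.092, limma adjusted p = 6.33e-10). It was lower under 5 of 6 scalings and had no call with the 5 housekeeping genes. Nod2, a sensor of bacterial muramyl dipeptide that signals through RIPK2, fell 5.09-fold (log2 -2.33, limma adjusted p = 3.08e-09), and Map3k1 4.54-fold, each turning to higher with the 5 housekeeping genes. Nod1, the other NOD receptor gene, fell 2.30-fold and turned to higher under 3 scalings.

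The 7 higher genes were the ligand genes Tnf, Lta, Ltb, Cd40lg, Tnfsf14 and Fasl and the receptor gene Cd40, with UV means of 20 to 64.9. Of 79 other tested genes at these UV levels 71 were higher and 3 lower, 35 of the 79 being at the floor in all UV samples. Of the 7 genes 3 (Lta, Cd40lg and Fasl) were listed at 20 in each UV sample, and the filter let them in only because they exceeded 20 with BMS-202. Tnfsf14, which encodes the ligand LIGHT, read 27.8, 31.0 and 31.4 with UV and 121, 179 and 131 with BMS-202, 4.78-fold higher (log2 2.20 ± 0.15, limma adjusted p = 9.93e-08). Lta, which encodes lymphotoxin alpha, was at least 2.53-fold higher against the UV negative control limit. Cd40lg, a T cell ligand gene, was at least 2.45-fold higher. Tnfsf14 and Tnf, which were above the floor of 20 in every UV sample, were called higher under all 6 scalings. With the 6 and the 5 housekeeping genes, however, their UV values were set to the raised floors of 98.0 and 134.7. Neither gene could read lower there, so these 2 scalings add nothing to the direction.

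Of 29 textbook NF-kB target genes listed, 26 were on the panel, of which 14 were lower relative to Gapdh, 10 higher and 2 without a call (median log2 -0.70, limma). These counts lie near the panel's shares of 55.0% lower and 38.3% higher, so the split is not particular to the list. C3, Cxcl5 and Mmp9 had the most negative log2 differences. C3, the central complement gene, read 1331, 1315 and 1278 with UV and 144, 158 and 137 with BMS-202 (log2 -3.16 ± 0.061, limma adjusted p = 9.11e-12). Cxcl5, a neutrophil chemokine gene, was at least 8.19-fold lower and the matrix protease gene Mmp9 8.24-fold lower. These 3 were called lower under all 6 scalings. Il23a, Nos2 and Il12b were higher by at least 4.79-fold, 4.81-fold and 3.48-fold against the UV limit. Their order among the higher genes is not known, since Il12b was listed at 20 in each UV sample, and Il23a and Nos2 in 2 of 3. Such genes passed the filter through their BMS-202 values and could hardly have read lower. Of the 26 target genes 10 were called in both directions across the scalings. Of 17 target genes with a promoter window in the table, 8 held a kappaB match (47.1%), against 33 of 187 panel genes (17.6%). The list was made of known NF-kB targets, so a higher share can follow from the choice of list.

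The genes whose centred values over the 6 samples were most like the median profile of the 10 were Limk1, Cd163, Hmgb1, Ccl11 and Smad7, with root mean square differences of 0.051 to 0.12 on the log2 scale. Their log2 differences were -0.98, -1.02, -0.98, -0.96 and -0.91. Among the 10 themselves, Relb and Ripk2 were each other's nearest profile of all tested genes, at 0.074. Nfkb1 was nearest to Jun (0.044) and Rela to Myc (0.054).

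Markers of different cell types did not move in 1 direction relative to Gapdh. Of 11 macrophage markers listed 6 were on the panel, none at the floor, and their summed value relative to Gapdh lay at 5566 to 5702 in UV samples and 1148 to 1303 in BMS-202 samples. The 2 T cell markers on the panel, Cd4 and Cd40lg, summed to 74.7 to 95.5 in UV samples and 189 to 198 in BMS-202 samples, and Cd40lg was at the floor with UV. The 1 neutrophil marker, Cxcr2, read 99.0 to 125 in UV samples and 105 to 144 in BMS-202 samples, with overlapping groups and no call (log2 0.11, limma adjusted p = 0.436). These marker values are relative to Gapdh, and the sums were not rescaled. Cd163, 1 of the 6 macrophage markers, was lower under 4 of 6 scalings and higher under both housekeeping scalings. The part of the marked cell types in the differences of the 10 genes was not tested. In whole skin fewer cells of a type, less RNA per cell and a change of the reference cannot be told apart. Whether the amount or quality of the assayed RNA differed between the groups was not tested.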

How the data were processed

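Groups and doses come from the labels, and 1 table holds all 6 samples. The deposited gene values are a signal, namely nCounter probe counts times 1 factor per sample: Gapdh is identical in all samples, values under 20 are written as 20, and 100% of those above it are whole multiples of a step (tolerance 0.006, slightly wider for large values). Control rows are unscaled counts. Neither the software nor the background handling is stated in the labels. Recovered counts gave the depth, the counts per gene, the counting error and the joint share of gene counts. The recovered steps put the control rows on the deposited scale for the negative control limits, the spike-in scaling and the background subtraction. No count-based test was run.

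Differences were tested with limma 3.58.1 (R 4.3.3; lmFit, eBayes with trend) on log2(value + 1), which understates changes of low genes. The fit held 240 endogenous genes exceeding 20 in 3 or more of the 6 samples, with Benjamini-Hochberg adjustment over all of them, and was tested on simulated data. Folds are ratios of group means, and against a mean under the negative control limit they use that limit as a lower bound. Rescaled tables got 1 floor, the highest rescaled 20. Permutation tests were exact. Alternatives were 5 other scalings, background subtraction, a pseudocount of 10, no filter or a filter at 50, no trend, robust estimation, a replicate block and leaving out each sample. Scaling to the 10 genes was added after seeing the data. Replicate numbers did not pair the samples (correlations of same-numbered deviations 0.020, -0.033 and 0.012).

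The 10 genes, lists and rules were chosen with earlier results of these data known. Named were all 10, the 3 largest changes in each direction of each further list, and the 5 nearest profiles. Other list genes and the nearest profiles of single genes were named after their values were seen.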

Additional observations from a re-analysis of the deposited data

How the results depend on the processing

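All alternatives that keep the deposited scaling (background subtraction, pseudocount, filters, no trend, robust estimation, replicate block and leaving out each sample) left all 10 genes called lower. The replicate block gave Nfkb1 -2.55 and changed no call among the 10, and the numbers did not pair the samples. The median of the 10 was -1.17 after background subtraction and -0.91 with a pseudocount of 10, and -1.01 to -0.92 without single samples. Without single samples the 10 genes ranged as follows on the log2 scale: Nfkb1 -2.63 to -2.51 and Ripk1 -0.59 to -0.40 (largest adjusted p = 0.0186).

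Rescaling decided directions. With 6 housekeeping genes the log2 differences were 0.51 (Rela), 1.04 (Relb), 1.87 (Tnfaip3), 1.58 (Birc2), 1.25 (Traf2), 1.77 (Tradd), 1.78 (Ripk1), 1.04 (Ripk2) and 1.32 (Bcl2l1), median 1.29. With the 5 without Gapdh they were 0.15 (Nfkb1), 0.96 (Rela), 1.49 (Relb), 2.32 (Tnfaip3), 2.03 (Birc2), 1.71 (Traf2), 2.22 (Tradd), 2.23 (Ripk1), 1.49 (Ripk2) and 1.77 (Bcl2l1), median 1.74. Quantile normalization gave 1.003 (Tnfaip3), 0.79 (Birc2), 0.29 (Tradd) and 0.31 (Ripk1), median -0.24, with 5 called lower and 2 higher. It also turned the ratio of Traf2 to the other 9 to -0.47. The panel median and spike-ins gave medians of -0.64 and -1.34. With the 10 genes as reference the values, by construction around 0, were 0.68 (Tnfaip3), 0.39 (Birc2), 0.068 (Traf2), 0.59 (Tradd), 0.59 (Ripk1) and 0.13 (Bcl2l1). With the 6 and the 5 housekeeping genes 1 and 0 of the 10 were called lower and 9 and 9 higher, other pathway genes were 1 and 0 lower and 12 and 14 higher, target genes 4 and 3 lower and 18 and 20 higher, and all tested genes 33 and 17 lower and 183 and 203 higher. Low values of UV skin are set to the raised floor there, and the cause of the reversals was not tested. The number of genes above the median of panel genes of like UV mean was 6 of 10 under a 2-fold window, 6 housekeeping genes and the panel median too.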
